A study of Mus musculus with 48 samples.

Results

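This report describes the lungs of XXM mice of the FCG model, which separates sex chromosomes from gonads, at postnatal day 21 (P21), after newborn exposure to hyperoxia and recovery in room air. It covers 6 of the 48 libraries of the series, chosen by their labels: XXM animals 53, 54 and 55, which were exposed, and XXM animals 37, 39 and 40, which were kept in room air (RA). In this model, here on the C57BL/6J background, testes depend on an inserted copy of Sry that is inherited apart from the sex chromosomes. XXM mice carry the chromosomes of a female and the gonads of a male. The exposed pups (O2) breathed 95% oxygen in their first days of life. The other P21 groups, each again of 3 room-air and 3 exposed animals, were XXF (XX, ovaries), XYF (XY, ovaries) and XYM (XY, testes). The question of the comparison was which genes still differed in this genotype after recovery. RNA came from whole lung, so fewer cells of a type and less RNA per cell cannot be told apart. Nothing in the labels ties animals to litters, and p-values measure the spread between these animals.

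In mice, the third postnatal week falls in the alveolar phase, when septa divide the air sacs and the capillary bed matures while cell division slows. High oxygen in the newborn period is used in this species as a model of bronchopulmonary dysplasia, the chronic lung disease of preterm infants. Whole mouse lung also holds heart muscle cells, which sheathe the pulmonary veins, and a dissected lung can carry fat, skeletal muscle or thymus from its surroundings.

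Total counts ran from 6042939 to 9083182 in the room-air XXM lungs and from 17354139 to 25477432 in the exposed XXM lungs, so depth and treatment did not overlap. Xist, the RNA of the inactive X chromosome, was at 314 CPM (counts scaled to library size with TMM factors) in exposed animal 53. In the other XXM lungs it was at 580 to 713 CPM. The Y-linked genes Uty, Ddx3y, Kdm5d and Eif2s3y were each below 0.8 CPM in the 6 XXM lungs. Sry was at 0.195 to 1.51 CPM, lowest in animal 53, with 3 counts. All 6 libraries thus carried the marks of their labelled genotype. Exposed animal 53 stood apart from the rest of its group: its 10 most counted genes took 13.4% of counts (7.66% and 8.60% in animals 55 and 54), and its summed alveolar type 1 marker level was 13168 CPM against 6993 and 7411 CPM.

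Of 17937 genes tested, 251 were lower and 14 were higher in recovered XXM lungs than in room-air XXM lungs (edgeR quasi-likelihood test, adjusted p under 0.05 and at least 1.5-fold). The test took the spread between animals from all 24 P21 animals. In a fit of the 6 XXM animals alone, 0 genes were lower and 0 higher. In the main fit the lower genes were 1.4% and the higher genes 0.0781% of those tested. Most calls were thus of lower genes. They held members of the lists for mitosis, DNA replication, heart muscle and fat. The median log2 fold change (O2 over RA) of all tested genes was 0.02. List medians depended on the room-air animals. Without animals 37 and 40 that of mitosis went from -1.99 to -0.41 and that of DNA replication from -0.65 to -0.12. Without animals 37 and 39 that of brown fat went from -2.52 to -0.49 and that of fat cells from -2.71 to -0.36. That of heart muscle went from -2.51 to -2.82 and -2.21 in these fits, each with 1 room-air XXM animal. Of the lower genes, 245 are protein coding, 124 were at least 4-fold lower, and 215 were lower in each exposed than in each room-air animal, an arrangement that 6.85% of all tested genes showed. In 108 of them the lowest room-air value was at least 1.5 times the highest exposed value.

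**Figure D1:**
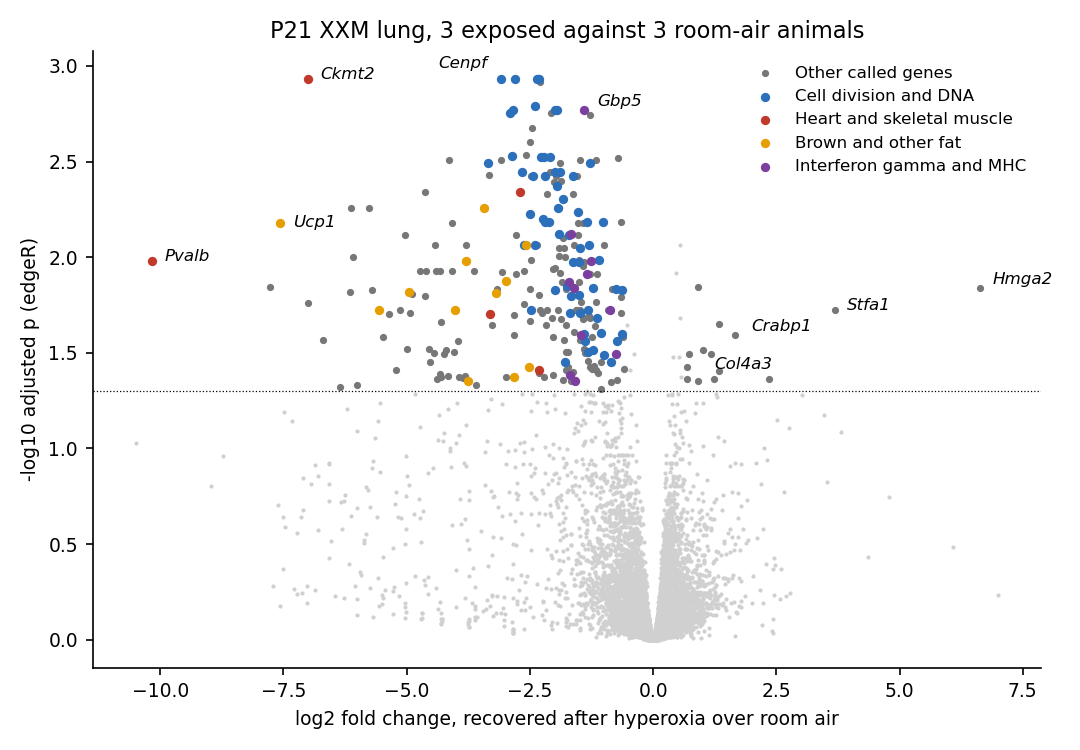
Log2 fold change of 17937 genes (x axis, O2 over RA in P21 XXM lung, 3 against 3 animals) against -log10 of the edgeR adjusted p in the fit of all 24 P21 animals (y axis), with the dotted line at 0.05; grey points are not called, dark points are called and colours mark 4 groups of genes. Most called points lie left of 0 (251 lower, 14 higher), with cell division genes at the top and muscle genes farthest left; the place of Hmga2, with 0 counts in room air, depends on the prior count of the fit.

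The room-air animals did not contribute evenly to this result. Animal 39 was the lowest of the 3 room-air animals for 159 of the 251 lower genes, animal 40 for 87 and animal 37 for 5. The genes with animal 39 lowest included all lower members of the lists for mitosis (46), DNA replication (13), recombination repair (4) and interferon gamma and MHC (11). The genes with animal 40 lowest included all lower members of the lists for brown fat (6) and fat cells (6), and 3 of the 4 of heart muscle. Leaving out animal 37 left 51 lower genes (0.279% of those tested), and leaving out animal 39 gave 334 (1.83%). In the fits that left out 1 of the 6 animals at a time, 48 of the 251 genes were lower in all 6 fits. Of these, 23 belong to the list of 50 mitosis genes, and others are Gbp5, an interferon-induced GTPase, and the striated muscle genes Ckmt2, Actc1, Casq2, Myoz2 and Tcap.

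Genes of mitosis, which build the spindle, the kinetochore and the cleavage furrow, were lower as a group. Of 50 members tested, 46 fell and none rose, with a median log2 fold change of -1.99 against 0.02 for all genes. All 50 had a negative fold change, and 36 were lower in each exposed than in each room-air animal, as were 6.85% of all tested genes. With 1 animal left out at a time, 23 (without animal 37) to 49 (without animal 39) were called, and 26 without animal 55. Mki67, the usual marker of cycling cells, was at 110.5, 31.4 and 107 CPM in room-air animals 37, 39 and 40, and at 24.01, 21.9 and 18.3 CPM in exposed animals 53, 54 and 55. The exposed animals lay close together and below all of the room-air animals, of which animal 39 was nearest to them. Its log2 fold change was -1.96 ± 0.29 (SE, adjusted p = 0.0017 by edgeR).

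Top2a, the topoisomerase that untangles sister chromatids, was at 88.1, 19.4 and 86.3 CPM in room air and at 16.7, 13.2 and 11.9 CPM after hyperoxia (log2 fold change -2.22 ± 0.35, adjusted p = 0.00299 by edgeR). Cdk1, the kinase that drives entry into mitosis, was at 35.8, 7.36 and 38.01 CPM against 8.26, 6.10 and 4.73 CPM. Here animal 39 fell within the exposed range. Cenpa, the histone variant of centromeres, had the smallest change of the group: 30.4, 16.1 and 30.7 CPM against 13.1, 16.02 and 13.7 CPM (log2 fold change -0.86 ± 0.20). The 46 called members ran from -3.35 to -0.86 on the log2 scale.

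Many of the genes with the smallest adjusted p-values were of this kind, beside the striated muscle gene Ckmt2 and the interferon-induced Gbp5, whose values follow with their groups. Cenpf, a kinetochore protein, was at 33.9, 6.69 and 33.5 CPM in room air and at 2.93, 3.74 and 2.04 CPM after hyperoxia, a log2 fold change of -3.09 ± 0.41 (adjusted p = 0.00117 by edgeR). Tpx2, which nucleates spindle microtubules, Ccna2 (cyclin A2), Prc1, which bundles the central spindle, and Hmmr, a spindle-associated protein, shared that adjusted p, as did Ckmt2, with log2 fold changes of -2.36, -2.34, -2.31 and -2.80. In the same range were Ccnb1 (cyclin B1), at -2.39, Kif18b and Cenpe, both mitotic kinesins, at -2.85 and -1.997, the mitotic kinase Pbk at -2.90, the DNA glycosylase Neil3 at -2.06, and the condensin subunit Ncapg2 at -1.27. For all genes named in this paragraph the 3 exposed animals lay below the 3 room-air animals.

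Of the 59 lower genes of the mitosis and DNA replication lists, 49 had a promoter window in the RefSeq table (GRCm38.p6). The 150 bases before the start are shown for the 4 of them with the smallest adjusted p, because promoters of mitosis genes are known for pairs of CCAAT boxes and for the elements TTTGAA and TTCGAA. Capitals mark CCAAT, or ATTGG where it lies on the other strand.
Cenpf (chr1:189688087-189688236, minus strand): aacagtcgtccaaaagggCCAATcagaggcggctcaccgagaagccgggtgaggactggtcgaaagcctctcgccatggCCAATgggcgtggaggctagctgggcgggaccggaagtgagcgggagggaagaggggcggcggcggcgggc
Prc1 (chr7:80294301-80294450, plus strand): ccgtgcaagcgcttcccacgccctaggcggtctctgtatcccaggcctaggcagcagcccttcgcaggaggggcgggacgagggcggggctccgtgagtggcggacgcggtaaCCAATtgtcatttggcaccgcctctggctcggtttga
Hmmr (chr11:40733438-40733587, minus strand): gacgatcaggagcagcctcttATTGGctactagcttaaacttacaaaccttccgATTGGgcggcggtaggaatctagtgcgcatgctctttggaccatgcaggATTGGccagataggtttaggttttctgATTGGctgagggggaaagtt
Ccnb1 (chr13:100786487-100786636, minus strand): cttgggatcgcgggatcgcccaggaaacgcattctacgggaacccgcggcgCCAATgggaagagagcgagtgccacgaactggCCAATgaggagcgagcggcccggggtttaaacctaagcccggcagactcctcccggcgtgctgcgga
Cenpf and Ccnb1 held 2 CCAAT matches, Prc1 held 1 and Hmmr held 4, on either strand. None of these 4 windows held TTTGAA or TTCGAA. Over the 49 windows 67.3% held CCAAT and 28.6% held TTTGAA, while over one window for each of 27025 genes the shares were 25.3% and 9.24%. TTCGAA was in 2.04% of the 49 and in 0.67% of all. Over the 40 windows of the mitosis list, called or not, 65% held CCAAT and 32.5% held TTTGAA. These counts describe letters in a window and no test was made.

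The mitosis level split the room-air animals. Summed over the 50 genes it was 1023, 301 and 1033 CPM in room-air animals 37, 39 and 40 and 239, 233 and 203 CPM in exposed animals 53, 54 and 55. Animals 37 and 40 were thus more than 4-fold above the exposed lungs, and animal 39 was above them by a small margin. Among all 24 P21 lungs, only these 2 animals and the 3 room-air XXF animals (34, 35 and 36) had sums of 1000 to 1068 CPM. The other 19 lungs, of both treatments, lay between 192 and 378 CPM.

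The same 5 lungs also had the lowest levels of clock genes that peak in the day. The sum of 11 such genes (among them Nr1d1, Dbp and Tef) was 453 to 481 CPM in these 5 lungs and 706 to 1562 CPM in the other 19, and animal 39 held the highest value. Nr1d1, the clock repressor Rev-erb alpha, was at 40.9, 216 and 28.9 CPM in room-air animals 37, 39 and 40 and at 82.2, 111 and 77.5 CPM in the exposed animals. Arntl (Bmal1), which peaks in the opposite phase, was at 30.7, 6.52 and 34.6 CPM in room air and at 15.8, 19.04 and 18.8 CPM after hyperoxia. The labels give no time of collection, and the part of this difference in the mitosis result was not tested. With animals 37 and 40 left out together, which leaves animal 39 as the only room-air XXM lung and assumes that it varies like the other groups, 0 of 19188 genes were lower (0.0%) and 0 higher by edgeR, with 1835 genes at an unadjusted p under 0.05. In that fit 42 of the 50 mitosis genes were still lower in exposed lungs, with a median log2 fold change of -0.41, and 10 had an unadjusted p under 0.05. This fit and the next were chosen after seeing the data.

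**Figure D2:**
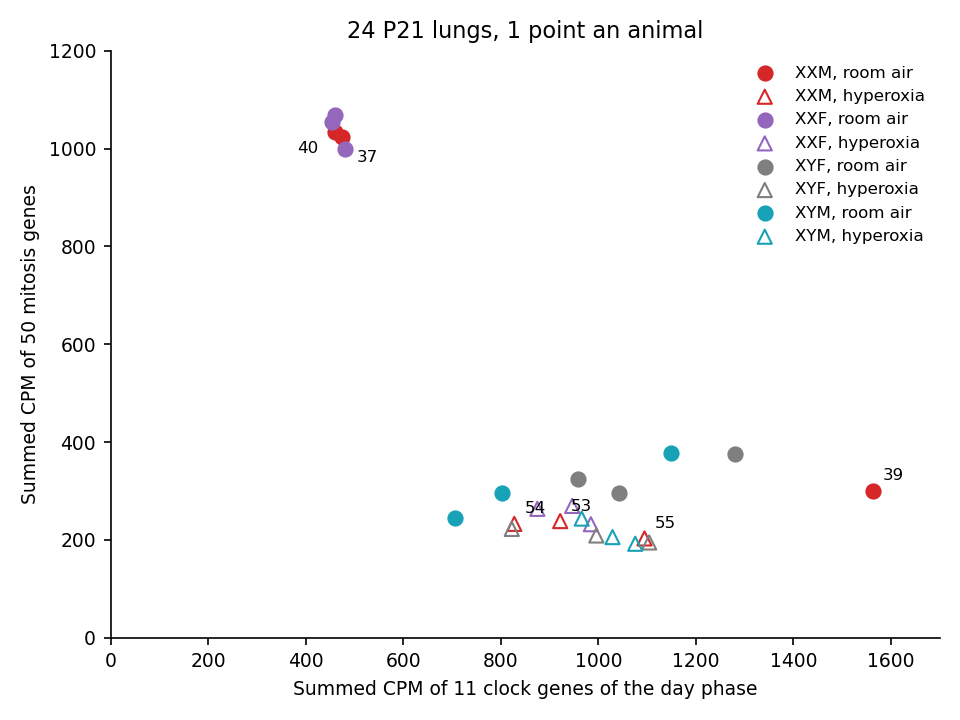
Summed CPM of 50 mitosis genes (y axis) against summed CPM of 11 clock genes of the day phase (x axis) in the 24 P21 lungs, 1 point an animal, filled circles for room air and open triangles for hyperoxia, coloured by genotype, with XXM animals numbered. Room-air XXM animals 37 and 40 lie with the 3 room-air XXF animals at 1000 to 1068 CPM of mitosis genes and 453 to 481 CPM of clock genes, away from the other 19 lungs.

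Genes of DNA replication, the helicase subunits, polymerases and ligase that copy the genome, were lower to a smaller degree. Of 40 members tested, 13 fell and none rose, with a median log2 fold change of -0.65. The count was 1 without animal 37, 3 without 40, 5 without 54, 2 without 55 and 23 without 39, and without animals 37 and 40 together it was 0, with a median of -0.12. Mcm5, a subunit of the replicative helicase, was at 25.3, 13.2 and 27.5 CPM in room air and at 9.11, 11.2 and 10.5 CPM after hyperoxia (log2 fold change -1.11 ± 0.22). Its partners Mcm6 and Mcm2 fell by 0.64 and 0.74 on the log2 scale, and the DNA ligase Lig1 fell by 0.63. For these genes animal 39 lay nearer to the exposed animals than to animals 37 and 40. The 13 called members ran from -1.71 to -0.63. Of 16 genes of recombination repair, 4 fell, among them Rad54b, a DNA translocase, by 1.63, Fanci of the Fanconi anemia pathway by 1.67, and Brca1 by 1.32 on the log2 scale. Brca1 was at 2.34 CPM in animal 39 and at 2.19 to 2.93 CPM in the exposed animals. With animals 37 and 40 left out its fold change turned to 0.15. In this list 11 genes were called when animal 39 was left out, none when animal 37 or 55 was, and 2 when animal 40, 53 or 54 was.

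A group of genes of interferon gamma and MHC class I was lower, and was collected into a list of 48 tested genes after the values were seen. Of these, 11 fell and none rose, 46 had a negative fold change, and the median was -0.60. The count was 2 without animal 37, 40 or 55, 3 without 53, 4 without 54 and 24 without 39, and without animals 37 and 40 together it was 0, with a median of -0.17. Gbp5 was at 18.1, 10.04 and 20.5 CPM in room air and at 5.40, 6.37 and 6.78 CPM after hyperoxia, a log2 fold change of -1.40 ± 0.20 (adjusted p = 0.0017 by edgeR). Ifi47, an interferon-induced GTPase, was at 51.7, 29.3 and 61.3 CPM against 23.4, 28.3 and 26.7 CPM. Nlrc5, the transactivator of MHC class I genes, was at 34.8, 9.87 and 38.4 CPM against 6.90, 9.54 and 11.01 CPM. Animal 39 lay within or close to the exposed range for both.

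Of the MHC class I genes of the Q region, 4 fell, and H2-Q1, H2-Q2 and H2-Q10 of the same list were not called (log2 fold changes -0.25, 0.26 and -0.17). H2-Q7 (chr17:35439155-35443773 on GRCm38) was at 27.3, 22.1 and 38.7 CPM in room air and at 7.87, 13.2 and 6.48 CPM after hyperoxia, a log2 fold change of -1.67 ± 0.31 (adjusted p = 0.00757 by edgeR). Its neighbours H2-Q6 and H2-Q5, an annotated polymorphic pseudogene, fell by 1.70 and 1.33, and H2-Q4 fell by 0.75. The 3 exposed animals lay below the 3 room-air animals for the 4 genes that fell, although for H2-Q4 animal 39, at 84.8 CPM, lay close to the highest exposed animal, at 78.8 CPM. Without animals 37 and 40 the log2 fold change of H2-Q4 was -0.27 (adjusted p = 0.745 by edgeR). These genes are near-identical copies between which reads can be split, so their separate values are uncertain. In the other 3 genotypes H2-Q7 was at 20.3 to 47.7 CPM in room air and at 7.76 to 20.4 CPM after hyperoxia, and its log2 fold change was -2.19 in XXF, -0.87 in XYF and -0.47 in XYM. The difference between XXM and the mean of the others was -0.49 ± 0.35 (adjusted p = 0.846 by edgeR).

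Other immune signals were lower in single genes. Of 28 genes of the type I interferon response, 1 fell, Cxcl10, a chemokine that interferon gamma also induces, which was at 2.92, 1.34 and 1.84 CPM in room air and at 0.716, 0.725 and 0.448 CPM after hyperoxia. The median of that list was -0.37. Of 12 T and NK cell genes, 1 fell, Prf1, the pore-forming protein of killer cells, at 4.53, 2.68 and 5.51 CPM against 1.76, 1.53 and 0.747 CPM. The other 11 were not called. The median of this list was 0.26, and 5 of the 12 had a negative fold change. Without overlap between the groups, 1 member was lower and 3 were higher. Prf1 was called in 1 of the 6 fits that left out 1 animal.

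Some genes that direct the formation of multiciliated cells were lower. Of 19 such genes, listed after the values were seen, 6 fell and 13 were not called, with a median of -0.60. The count was 0 without animal 37, 40, 54 or 55, 3 without 53, and 1 with counts thinned to equal depth. Without animals 37 and 40 together it was also 0, with a median of -0.18 and 12 of 19 lower. Gmnc, which starts the program, was at 5.11, 3.35 and 4.21 CPM in room air and at 2.15, 1.87 and 1.64 CPM after hyperoxia. Mcidas, which acts after it, was at 3.95, 1.34 and 5.51 CPM against 1.30, 0.878 and 0.947 CPM. Cdc20b, a gene of the same stage, was at 3.21, 1.004 and 4.32 CPM against 0.911, 0.496 and 0.448 CPM. Foxj1, the regulator of the cilia of mature cells, was not called, at 83.5 to 99.4 CPM in room air and 60.9 to 81.1 CPM after hyperoxia. The called members also held Plk4, the kinase of centriole duplication, which serves dividing cells too.

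Genes of heart muscle were lower in all exposed XXM lungs. The sum of 12 such genes was 483, 806 and 585 CPM in room-air animals 37, 39 and 40 and 141, 102 and 127 CPM in exposed animals 53, 54 and 55. The groups did not overlap. Animal 40, the room-air XXM lung with the least skeletal muscle and fat signal, was at 585 CPM. The labels do not say how much heart or vein was taken with each lung, and the part of this in the difference was not tested. Of the 12 members tested, 4 fell and none rose, and the median log2 fold change was -2.51. In 10 of them each exposed animal was below each room-air animal, as in 6.85% of all tested genes. Actc1, the actin of heart muscle, was at 200.5, 192 and 108 CPM against 20.4, 26.3 and 30.4 CPM (log2 fold change -2.69 ± 0.47, adjusted p = 0.00455 by edgeR). Tnnt2, cardiac troponin T, was at 27.6, 68.1 and 55.5 CPM against 13.1, 7.06 and 10.2 CPM. Ckmt2, the mitochondrial creatine kinase of striated muscle, was at 45.7, 13.9 and 11.3 CPM against 0.13, 0.267 and 0.0996 CPM, and Sln, a small regulator of the muscle calcium pump, was at 45.1, 20.7 and 12.3 CPM against 4.36, 2.14 and 1.49 CPM. Ckmt2 and Sln are also made by skeletal muscle, and both were highest in animal 37.

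Genes that mark atrial and venous heart muscle were low after hyperoxia without passing the threshold. Myl7, the atrial light chain, was at 30.1, 77.1 and 63.8 CPM in room air and at 25.1, 9.54 and 10.7 CPM after hyperoxia (adjusted p = 0.202 by edgeR). Myh6, the alpha heavy chain, was at 50.3, 244 and 177 CPM against 10.02, 12.4 and 23.4 CPM (adjusted p = 0.0631 by edgeR). No value of either gene overlapped between the groups. DESeq2 called 9 of the 12 heart muscle genes. With 1 of the 6 animals left out at a time, Ckmt2 and Actc1 were called in all 6 fits and Tnnt2 in 0. The list's count was 2 without animal 37, 54 or 55 and 3 in the other fits. With both muscle-rich animals 37 and 39 left out, which leaves animal 40 as the only room-air lung, the median was -2.21 and 1 member, Ckmt2, was called. With animals 37 and 40 left out it was -2.82 and none was called. The list's sum in the 9 other room-air lungs was 427 to 894 CPM. In 8 of the 9 other exposed lungs it was 68.1 to 239 CPM and in 1, XXF animal 49, it was 1004 CPM.

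Skeletal muscle and fat genes were high in some room-air XXM lungs and lower in others. How much surrounding tissue came with each lung is not in the labels, and its part in these values was not tested. The sum of 14 skeletal muscle genes was 8501, 1642 and 59.7 CPM in room-air animals 37, 39 and 40, and 13.7, 42.2 and 16.99 CPM in the exposed animals. Acta1, skeletal actin, was at 1720, 494 and 7.99 CPM against 0.521, 9.46 and 1.84 CPM. Of the 14 genes 1 was called, Pvalb, a calcium buffer of fast fibres, at 499, 20.2 and 1.40 CPM against 0.0651, 0.267 and 0.0498 CPM. Animal 40 lay far below the other 2 room-air animals, and the other 13 genes, with a list median of -6.83, were not called. Pvalb was 1 of the 10 called genes with the largest changes. Besides 1 gene with a predicted name, the rest of these 10 were Ckmt2, Ucp1, the muscle ubiquitin ligases Trim54 and Trim63, the myosin light chain Myl3, Eef1a2, Yipf7 and Tmem45b, from -7.77 to -6.01 on the log2 scale. Yipf7 was at 0 in all exposed lungs and at 0.864 to 2.17 CPM in room air, so its fold change depends on the prior count of the fit. With 1 animal left out, Ckmt2 was called in 6 of 6 fits, Ucp1 and Trim63 in 5 and Tmem45b in 4. Yipf7 was called in 3, Pvalb, Trim54 and Eef1a2 in 2 and Myl3 in 1. Without animals 37 and 39 the log2 fold change was -5.97 for Ckmt2 and -6.97 for Yipf7. For the other named genes it then ran from -3.93 (Ucp1) to -2.50 (Tmem45b).

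The sum of 12 brown fat genes was 225, 295 and 79.5 CPM in room air against 74.4, 65.9 and 62.8 CPM after hyperoxia. Ucp1, the uncoupling protein that defines brown fat, was at 52.6, 147 and 5.40 CPM in room air and at 0, 0.458 and 0.498 CPM after hyperoxia. Animal 40 was far below the other 2 room-air lungs and above the exposed ones. Of 11 tested brown fat genes 6 fell, with a median of -2.52, and of 14 tested genes of fat cells in general 6 fell, with a median of -2.71. They include the fatty acid carrier Fabp4 at -2.99, Thrsp at -3.79 and Pck1 at -4.96, both of lipid and glucose metabolism, and the lipid droplet protein Plin4 at -2.82, and from the brown fat list Cidea at -4.03 and the respiratory chain subunits Cox7a1 at -3.42 and Cox8b at -2.52. With 1 animal left out, 0 (without animal 55) to 6 brown fat genes and 0 (without animal 37 or 54) to 7 fat cell genes were called: for brown fat 1 without animal 37 and 3 without 39, 53 or 54, and for fat cells 2 without 39 or 53. With animals 37 and 39 left out, 158 genes were lower (0.826%). None of them was of the skeletal muscle, brown fat or fat cell lists, and 46 were of the mitosis list.

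**Figure D3:**
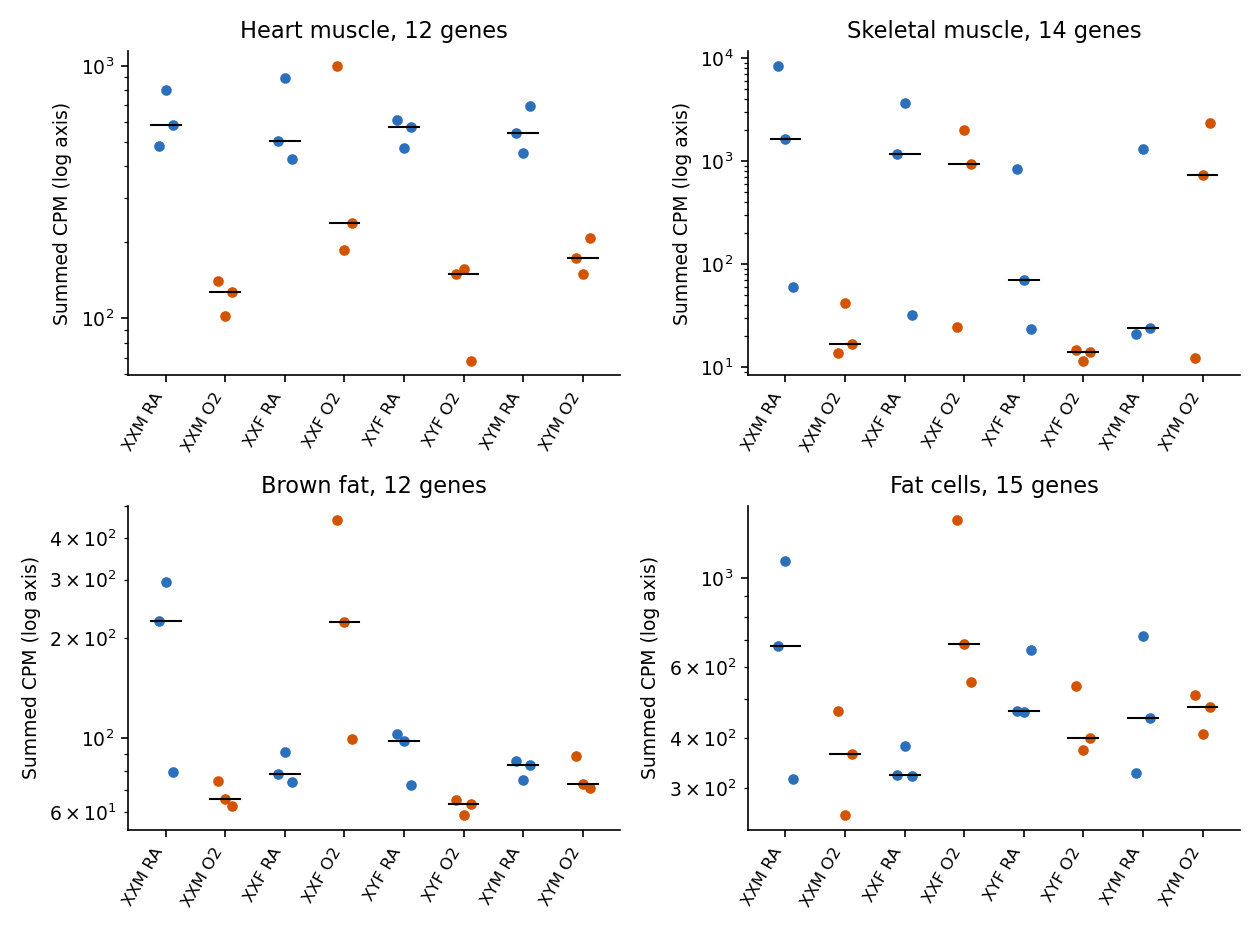
Summed CPM (log axis) of 4 lists of tissue genes in the 24 P21 lungs by genotype and treatment, 1 point an animal, blue for room air and orange for hyperoxia, with the group median as a bar. Heart muscle was low in all 3 exposed XXM lungs (102 to 141 CPM against 483 to 806 CPM), while skeletal muscle and fat varied widely among the room-air XXM lungs.

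**Figure D4:**
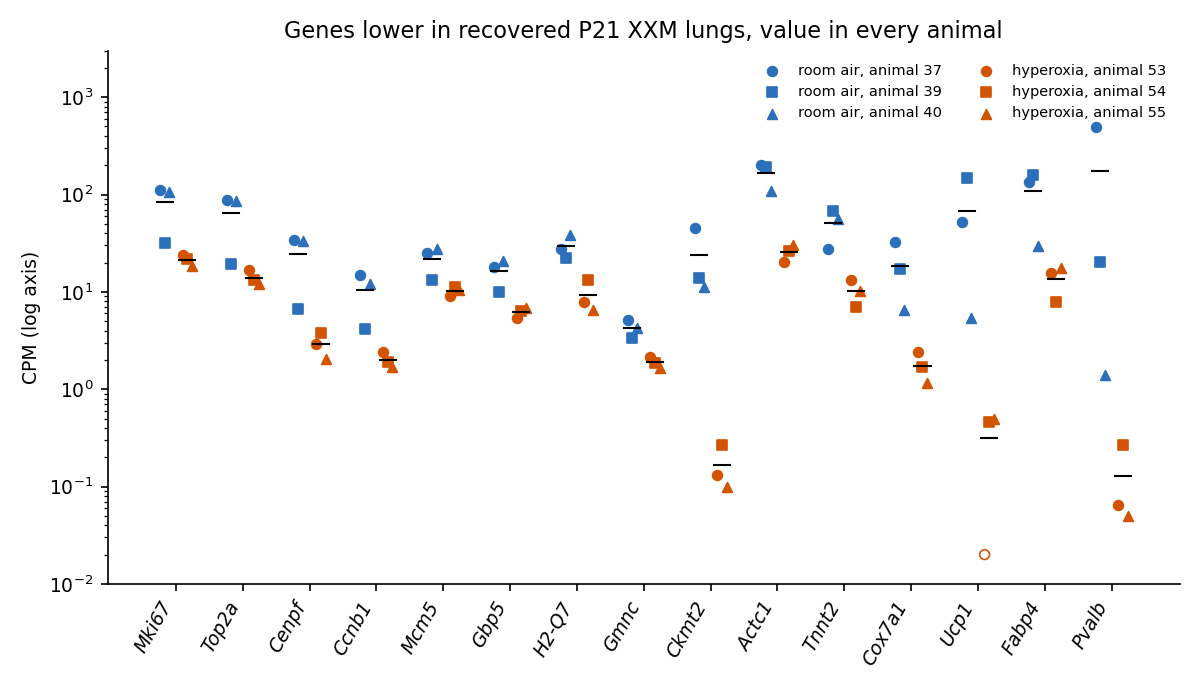
CPM (log axis) of 15 genes lower in recovered P21 XXM lungs, 3 room-air animals in blue and 3 exposed animals in orange with 1 symbol an animal, bars at group means and an open symbol for 0 counts (Ucp1, animal 53, drawn at the foot of the axis). For cell division genes animal 39 (blue square) is the lowest room-air value, as in Mki67 with 31.4 CPM against 110 and 107; for fat and skeletal muscle genes it is animal 40 (blue triangle).

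The 14 higher genes did not overlap between the groups, an arrangement that 4.87% of all tested genes showed in that direction. Col4a3, a collagen of the alveolar basement membrane (chr1:82586921-82722059 on GRCm38), had the highest counts: 232, 244 and 211 CPM in room air and 576, 350.3 and 367 CPM after hyperoxia (log2 fold change 0.91 ± 0.23, adjusted p = 0.0445 by edgeR). Animal 53 was the highest, as it was for the alveolar type 1 markers. The other room-air lungs were at 246 to 398 CPM, all above the room-air XXM values.

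Crabp1, which binds retinoic acid in the cell, was at 5.84, 3.18 and 10.8 CPM in room air and at 17.1, 23.7 and 23.3 CPM after hyperoxia (log2 fold change 1.65 ± 0.38, adjusted p = 0.0254 by edgeR). Wnt10b, a Wnt ligand, was at 18.6, 13.05 and 16.5 CPM against 23.2, 27.7 and 26.6 CPM. Bmp2, a ligand of the BMP pathway, was at 6.87, 6.36 and 5.83 CPM against 8.98, 9.88 and 11.6 CPM. For both genes the groups were close to each other without overlap. Crabp1 was the only called gene of 36 alveolar growth signals, whose median was 0.09. The log2 fold change of Wnt10b was 0.60 in XXF, 0.56 in XYF and 0.44 in XYM, and that of Bmp2 was 0.75, 0.46 and 0.56.

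A pair of proteinase inhibitors of the stefin family, which are expressed in neutrophils, were higher. Stfa1 was at 0.292, 0.669 and 0.108 CPM in room air and at 7.61, 3.28 and 2.04 CPM after hyperoxia, and Stfa2l1 was at 0.584, 0.669 and 0.54 CPM against 3.84, 3.43 and 1.84 CPM. The room-air values rest on 2, 4 and 1 counts of Stfa1 and on 4, 4 and 5 counts of Stfa2l1. The other room-air lungs held 0.82 to 7.28 CPM of Stfa2l1, all above the room-air XXM values, while for Stfa1 the ranges overlapped. Both genes belong to a cluster of similar copies, so reads may be split among them. The 14 tested granulocyte genes had no call and a median of 0.95. Spink5, a serine proteinase inhibitor of epithelia, was at 17.7, 12.04 and 11.98 CPM against 50.3, 24.8 and 30.3 CPM. Pgc, pepsinogen C, which alveolar type 2 cells make, was at 2.48, 3.01 and 3.13 CPM against 8.20, 4.54 and 4.83 CPM, and animal 53 was highest for both.

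The remaining higher genes had low counts, as the stefin genes did. Chst8, a sulfotransferase, rose from 2.48, 4.01 and 4.32 CPM to 6.57, 9.23 and 11.8 CPM. Fndc10 (log2 fold change 0.92), the noncoding RNA Hotairm1 of the Hoxa cluster (0.74), Pgbd5 (1.17) and 1 gene with a predicted name made up the rest but for Hmga2. Fndc10 was at 2.19 to 3.18 CPM in room-air XXM lungs, below the 3.43 to 4.88 CPM of the other room-air lungs. For Chst8, Hotairm1 and Pgbd5 these ranges overlapped. Hmga2, a chromatin protein of growing tissues, had 0 counts in all 3 room-air XXM lungs and 44 counts over the 3 exposed lungs. Set against 3 counts over the room-air group, it was at least 5.10-fold higher after hyperoxia. The other room-air lungs held 0.27 to 0.62 CPM of it, so the room-air XXM lungs, at a group floor of 0.14 CPM, were lower than other room-air lungs. None of the 14 was called in all 6 fits that left out 1 animal: Fndc10 was called in 4 of them, the most of any, and Col4a3 and Stfa2l1 in 0.

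**Figure D5:**
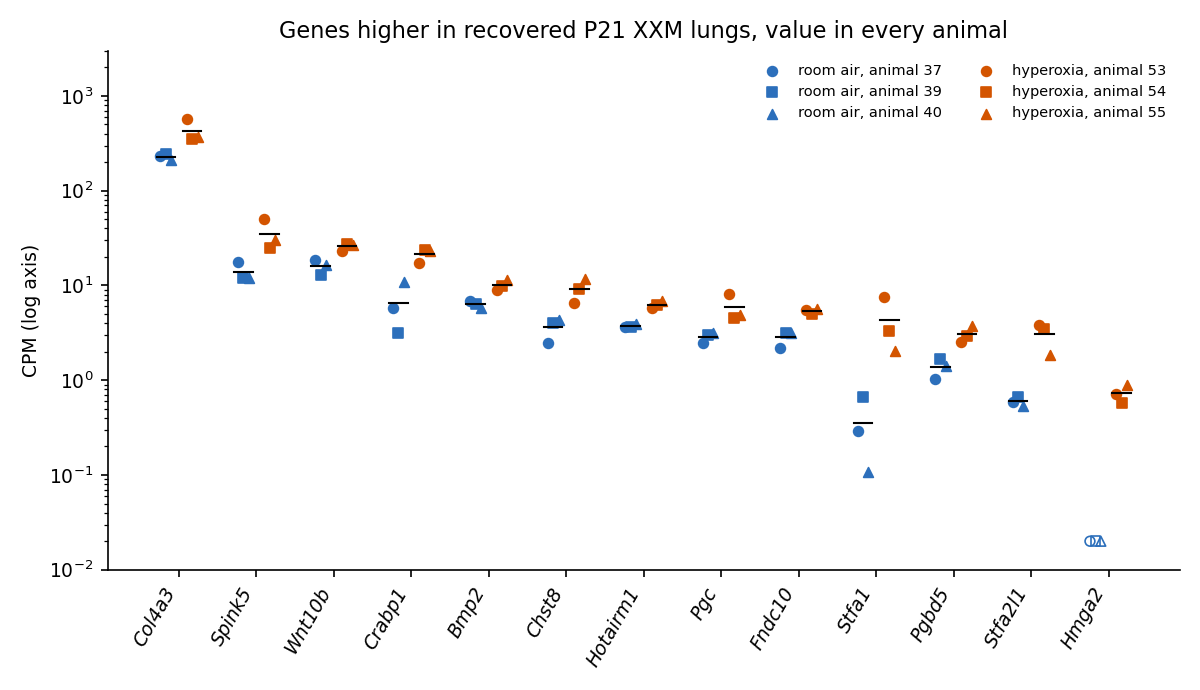
CPM (log axis) of the 13 named genes higher in recovered P21 XXM lungs, room-air animals in blue and exposed animals in orange with 1 symbol an animal, bars at group means, and open symbols at the foot of the axis for 0 counts. In every gene the 3 exposed animals lie above the 3 room-air animals, from Col4a3 (211 to 244 against 350.3 to 576 CPM) to Hmga2 (0 against 0.572 to 0.897 CPM).

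The cell types of the lung showed no call. In the lists for alveolar type 1 and type 2 cells, club and ciliated cells, endothelium, fibroblasts and smooth muscle, no member passed the test in either direction. The medians ran from -0.35 (smooth muscle and myofibroblasts) to 0.33 (alveolar type 1). Ager and Emp2, of alveolar type 1 cells, were at 2456 to 4982 CPM and 1276 to 2344 CPM over the 6 lungs. Sftpc and Lyz2, of type 2 cells, were at 20438 to 40979 CPM and 4849 to 9273 CPM, and Scgb1a1 and Cyp2f2, of club cells, at 17018 to 41379 CPM and 1455 to 2672 CPM. The highest of each was animal 53. Without it the alveolar type 1 sums were 6993 and 7411 CPM after hyperoxia and 6864 to 7635 CPM in room air, which overlap.

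Endothelial genes were not called either: Cdh5, the junction cadherin, was at 544 to 1058 CPM and Pecam1 at 496 to 851 CPM, with animal 53 lowest for both. Fibroblast genes had a sum of 2439 to 2648 CPM in room air and of 2758 to 3681 CPM after hyperoxia, which did not overlap, although no member was called. Npnt, a matrix ligand, was at 1267 to 1494 CPM in room air and 1660 to 2060 CPM after hyperoxia (adjusted p = 0.14 by edgeR), and Pdgfrb at 247 to 325 CPM against 218 to 414 CPM. Of smooth muscle genes, Des and Acta2 were at 71.1 to 307 CPM and 81.02 to 172 CPM. The 34 genes of elastin and collagen matrix had no call and a median of 0.07, with Eln at 2462 to 3517 CPM in room air and 2667 to 4182 CPM after hyperoxia and Sparc at 4056 to 5396 CPM. The 31 vascular growth genes had a median of 0.03, with Vegfa at 753 to 929 CPM and Epas1 at 1880 to 2904 CPM.

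Apart from Prf1 in the list of T and NK cells, blood and immune cell lists were without calls. Macrophage genes summed to 658 to 717 CPM in room air and to 1628, 726 and 529 CPM in exposed animals 53, 54 and 55. Chil3, a product of alveolar macrophages, was at 984 CPM in animal 53 and at 189 to 283 CPM in the other 5 lungs, and Csf1r was at 109.7 to 164 CPM. Animal 53 thus set the upper end of that list. Chil1 and Lcn2, of granulocytes, were at 570.4 to 951 CPM and 86.5 to 137 CPM, and Ighm and Igkc, of B cells, at 155 to 314 CPM and 58.9 to 120.5 CPM. Hbb-bs and Hba-a1, of red cells, were at 5859 to 18557 CPM and 3176 to 6651 CPM, and Kit and Gata2, of mast cells and others, at 125 to 253 CPM and 118 to 169 CPM. Rag1, of thymocytes, was at 0.438 to 0.756 CPM in room air and 0.897 to 4.43 CPM after hyperoxia, and Cd8b1 at 0.324 to 0.584 CPM against 0.648 to 2.33 CPM. Both were low and did not overlap between the groups, and neither did the thymocyte sums, at 80.4 to 85.8 CPM against 86.1 to 104 CPM, although no member was called. Of all tested genes, 4.87% lay this way. In room-air XXF, XYF and XYM lungs mean Rag1 was higher, at 9.72, 3.52 and 5.07 CPM, and after hyperoxia it was 2.36, 0.31 and 1.02 CPM. Mean Cd8b1 in these groups was 10.5, 4.84 and 1.34 CPM in room air and 4.72, 6.34 and 0.71 CPM after hyperoxia. Alb, of liver, was at 0.669 to 2.99 CPM. Tcf7 and Cd1d1 of the thymocyte list were at 22.2 to 34.3 CPM and 15.1 to 20.1 CPM, and Cyp2e1 of the liver list was at 3.35 to 15.2 CPM. Msln and Krt19, of mesothelium, were at 86.1 to 277 CPM and 109 to 204 CPM, and Pmp22 and Prx, of the nerve list, at 562 to 837 CPM and 204 to 436 CPM.

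Lists of stress and signalling genes had no call. The 16 p53 targets had a median of 0.02, with Btg2 at 179 to 236 CPM and Plk2 at 102 to 206 CPM. The 20 targets of the antioxidant regulator Nrf2 had a median of -0.11, with Prdx1 at 352 to 679 CPM and Sod1 at 319 to 541 CPM. The 22 inflammatory cytokines and chemokines had a median of -0.03, with Cxcl15 at 1201 to 2595 CPM and Cxcl12 at 182 to 313 CPM. Medians of the lists for glucocorticoid targets, imprinted growth genes, immediate early genes and heat shock genes ran from -0.06 to 0.23. In these, Tsc22d3 and Errfi1 were at 273 to 667 CPM and 157 to 313 CPM, Igf2r and Grb10 at 113 to 149.5 CPM and 95.3 to 166 CPM, Jun and Dusp1 at 188 to 291 CPM and 127 to 289 CPM, and Hspa8 and Hsp90aa1 at 634 to 1859 CPM and 181 to 374 CPM. Of the clock lists, Clock and Tef were at 65.9 to 97.9 CPM and 135 to 508 CPM, and Per1 at 75.8 to 201 CPM.

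Of the genes that the study singled out in recovered lungs, none of 10 was called in XXM animals. The study chose them for differences by gonadal or chromosomal sex or for immune pathways, not for the XXM response alone. Its overlaps by gonadal or chromosomal sex hold genes that the hyperoxia response of XXM shares with that of XYM or XXF. It measured them by qPCR in other animals and reported good correlation with its sequencing. Hamp, the iron hormone hepcidin, was at 0.877, 2.68 and 2.38 CPM in room air and at 0.521, 0.343 and 0.448 CPM after hyperoxia (log2 fold change -2.18 ± 0.77, adjusted p = 0.219 by edgeR). Peg3, an imprinted gene, was at 71.3, 77.1 and 62.6 CPM against 66.9, 99.2 and 172 CPM. Zbtb16, a transcription factor that glucocorticoids induce, was at 8.04, 112 and 7.34 CPM against 38.2, 14.9 and 126 CPM, and Hif3a, a hypoxia-inducible factor subunit, at 3.07, 23.9 and 2.16 CPM against 9.24, 8.09 and 30.2 CPM. In both, animals 39 and 55 were high and the groups overlapped. The adjusted p-values of Peg3, Zbtb16, Hif3a, Tlr7, Nr1d1, Alox15, Hk3, Rsad2 and Ltf ran from 0.428 to 0.99 by edgeR. Ltf was at 30.7, 21.4 and 13.8 CPM in room air and at 9.70, 9.12 and 10.2 CPM after hyperoxia, without overlap. Tlr7 is X-linked and was at 4.48 to 12.5 CPM over the 6 lungs.

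Of 568 X-linked genes tested, 5 fell and none rose, where 1.4% of all tested genes fell. Cenpi (-1.79), of the centromere, and Kif4 (-1.41), a chromosome kinesin, are cell division genes. Smpx (-4.60) and Itgb1bp2 (-4.33) are striated muscle genes, and the fifth, Igsf1, was at 2.19, 1.84 and 1.19 CPM in room air and at 0.39, 0.496 and 0.747 CPM after hyperoxia. 

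XXM lungs at the end of exposure, at P5, came from other animals. There 1139 of 17677 genes were lower (6.44%) and 801 higher (4.53%). Exposed P5 animals 22 and 23 had counts in 17764 and 15985 genes, fewer than the other P5 libraries, and without them 426 genes were lower (2.27%). Of the 251 genes lower at P21, 239 were tested at P5, 27 were lower and 5 higher, and their median log2 fold change was -0.26 against -0.02 for all genes. Without animals 22 and 23, 6 were lower and 2 higher. The mitosis genes summed to 2212 to 2276 CPM in room air and 1528 to 1888 CPM after hyperoxia at P5, where 10 of 50 fell (4 without animals 22 and 23) and the median was -0.40. Levels at P5 were thus above all P21 levels in this genotype. Of heart muscle genes 0 of 12 were called at P5, with a median of -0.13. Of the 14 genes higher at P21, 2 were higher and 6 lower at P5 (3 and 3 without animals 22 and 23): Spink5 and Col4a3 rose at both ages, by 1.18 and 0.71 on the log2 scale at P5, and Crabp1, Chst8, Pgc, Pgbd5, Wnt10b and Bmp2 fell at P5, with Crabp1 at -1.99.

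The XXM response was compared with that of the other genotypes within the same fit. Against XXF, which has the same chromosomes and other gonads, 20 genes differed, all with a lower response in XXM (0.112% of those tested). The genes with the smallest adjusted p were of fat: Ucp1, Cidea, Pck1, Fabp4 and Otop1, a proton channel found in brown fat. Ucp1 fell in XXM lungs from a mean of 68.5 to 0.32 CPM and was higher in exposed XXF lungs, with means of 0.14 and 97.3 CPM, and the difference of the responses was -16.93 ± 2.13 on the log2 scale (adjusted p = 0.00199 by edgeR). The brown fat sum of the exposed XXF lungs ran from 99.9 to 452 CPM. Cell division genes were not among the 20: Cenpf had a log2 fold change of -3.09 in XXM and -3.08 in XXF, and Mki67 of -1.96 and -2.11. The 3 room-air XXF animals and room-air XXM animals 37 and 40 were the 5 lungs with high mitosis and low day-phase clock sums.

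Against XYM, which has the same gonads and other chromosomes, 0 genes differed by edgeR, where 1404 had an unadjusted p below 0.05, and DESeq2 called 42. Against the mean of the other 3 genotypes 0 differed by edgeR, where 1288 had an unadjusted p below 0.05, and DESeq2 called 15. For Mki67 the log2 fold change was -0.89 in XYM and -1.004 in XYF, and the difference of XXM from the mean of the others was -0.62 ± 0.32 (adjusted p = 0.726 by edgeR). Ckmt2 had the smallest adjusted p of the named genes there, with a difference of -4.85 ± 1.00 (adjusted p = 0.363 by edgeR). For Col4a3 the fold changes were -0.15 in XXF, 0.08 in XYF and -0.14 in XYM on the log2 scale, and the difference was 0.98 ± 0.26 (adjusted p = 0.452 by edgeR).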

How the data were processed

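Members are the 6 libraries whose labels give XXM and P21. The authors prepared oligo-dT enriched, stranded libraries and deposited raw counts per gene, whole numbers without normalization. Per the submitters' processing notes, HISAT2, featureCounts and mm10 were used, with no versions given, while the strand setting of the counting was not stated. Symbols and positions came from GENCODE M21 (GRCm38) by Ensembl identifier, which matched 52403 of 52550 genes. For room-air XXF animal 34, the header and the title disagree on age, and the title decided.

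All 24 P21 animals were fitted together in edgeR 4.0.16 (R 4.3.3): filterByExpr by group, TMM, 8 group means, 16 residual degrees of freedom, quasi-likelihood F test, two-sided, Benjamini-Hochberg adjustment over 17937 genes. A gene is called at adjusted p under 0.05 and at least 1.5-fold. The P5 animals were fitted the same way and apart. SE is the absolute log2 fold change over the square root of F. CPM are scaled by TMM factors. A floor of 3 counts covers counting error only. Total counts of the 6 libraries were 6042939 to 25477432. The fits were tested on simulated data.

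Gene lists (36 of cell types, tissues and processes) and tests were chosen with earlier results of these data known, and 2 further lists, marked in the report, after the values were seen. Lists carry no test. Genes named are all called up, the 15 called down with the smallest adjusted p at 1 CPM or more in room air, the 10 largest non-overlapping changes at 1 CPM or more in the higher group, called members of the lists (the 4 with the highest CPM), the 2 members with the highest CPM of lists without a call, genes named by the study, called X genes, the 5 with the smallest adjusted p in the XXF comparison, and defining genes of tissues that may come with the lung (Ucp1, Cidea, Rag1, Cd8b1, Alb, Acta1, Myh6). Other genes named (Myl7, Dbp, Foxj1, Casq2, Myoz2, Tcap, Mcidas, Cdc20b, Nlrc5, H2-Q1, H2-Q2, H2-Q5 and H2-Q10) were chosen after their values were seen. Genes with predicted names were counted only. Some genes that the rule selects are not reported here. Alternatives were RLE factors, counts thinned to 6042939, no filter beyond 1 count, DESeq2 1.42.0, no fold minimum, the 6 animals alone, and each animal left out. Leaving out animals 37 and 40, or 37 and 39, was added after seeing the data.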

Additional observations from a re-analysis of the deposited data

Results flagged for a closer look

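The response of 5 fat genes differed between XXM and XXF lungs at P21 by a test of the difference itself (edgeR, P21 fit). The differences, XXM minus XXF on the log2 scale, were -16.93 for Ucp1 (adjusted p = 0.00199), -9.20 for Cidea (0.00286), -10.75 for Pck1 (0.00286), -5.96 for Fabp4 (0.00408) and -11.82 for Otop1 (0.00539). The brown fat list summed to 225, 295 and 79.5 CPM in room-air XXM animals 37, 39 and 40 and to at most 74.4 CPM in exposed XXM animals, and in XXF the exposed animals held 99.9 to 452 CPM. All 3 exposed XXM animals and all 3 room-air XXF animals were below 1 CPM of Ucp1. The part of fat tissue taken with the lung in this difference was not tested.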

How the results depend on the processing

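The 251 lower and 14 higher genes were 254 and 14 with RLE factors, 248 and 10 without the low-count filter, and 255 and 20 without a fold minimum. With counts thinned to equal depth they were 157 and 6, and with DESeq2 396 and 27. In the 6 animals alone, 0 and 0 passed edgeR, and 1094 genes had an unadjusted p below 0.05. Leaving out 1 animal gave 51 to 334 lower and 1 to 33 higher genes, the fewest lower without animal 37 and the most without animal 39. Without animals 37 and 40 it was 0 and 0, and without animals 37 and 39 it was 158 and 2. The XXM and XXF responses differed in 13 genes with thinned counts, in 72 with DESeq2, and in 6 to 54 with 1 animal left out, the most without animal 40. The XXM and XYM responses differed in 42 genes with DESeq2 and in 0 to 63 with 1 animal left out, the most without animal 39. Against the mean of the other genotypes it was 15 with DESeq2 and 0 to 16, the most without animal 39. At P5, 798 genes were called without animals 22 and 23, against 1139 lower and 801 higher genes with them.

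Some named genes changed the sign of their log2 fold change. Without animals 37 and 40 it was 0.15 for Brca1, 0.20 for Kif4, -0.91 for Zbtb16, -0.59 for Hif3a, 0.37 for Alox15 and -0.23 for Rsad2. Without animals 37 and 39 it was 1.63 for Nr1d1, 0.76 for Alox15 and -0.050 for Hk3. With 1 animal left out it ran from -0.64 to 2.96 for Zbtb16, from -0.088 to 2.62 for Hif3a, from -0.066 to 0.61 for Tlr7, from -0.49 to 1.38 for Nr1d1, from -0.98 to 0.58 for Alox15 and from -0.20 to 0.35 for Hk3. The cause was not tested. No paired analysis was possible because the groups share no replicate numbers. Room-air XXM libraries were shallower than exposed ones, so depth and treatment cannot be told apart.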
